A study of Mus musculus with 8 samples.

Results

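Genes of cholesterol synthesis, sterol uptake and efflux were described in dendritic cells of mice. The 31 genes were grouped by their place in the pathway, from the first mevalonate enzymes to the sterol-sensing receptors. The list was fixed with earlier results of these data known, so its counts describe it and are no independent test. A listed probe was found for 26 of them, and 21 were measured, which means that at least 1 probe had a detection p under 0.01 on 4 or more of the 8 arrays. For comparison, 8252 of the 19057 named genes on the array were measured. Of the 46 listed probes of the 31 genes, 31 passed that filter.

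The groups were lymph node (LN) dendritic cells that expressed CCL17/EGFP and splenic dendritic cells that did not, with 4 arrays each. Both groups carried the CCL17E/+ genotype on a C57BL/6 background, a reporter allele in which EGFP marks transcription of the chemokine gene Ccl17, and came from mice aged 2 to 5 months that had received 100 µg of the endotoxin LPS 15 h earlier. Both were sorted as NK1.1-CD8alpha-CD11c+CD11b+ cells, the LN cells from mesenteric and peripheral nodes, and the organs were taken in parallel from the same mice. Organ and CCL17 status changed together, so neither can be told apart from the other, and the number of mice or pools behind an array is not given in the sources used here. The p-values therefore measure the spread between these samples, which may be technical.

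Cholesterol is made from acetyl-CoA through mevalonate, isoprenyl diphosphates, squalene and lanosterol. The same early steps supply farnesyl and geranylgeranyl groups for protein prenylation. When sterol in the endoplasmic reticulum is low, SCAP carries SREBP transcription factors to the Golgi for cleavage, and the released domain activates genes of synthesis and uptake. When sterol is high, INSIG proteins hold SCAP back. Oxysterols activate the LXR receptors, which drive genes of sterol export. In dendritic cells and macrophages, Toll-like receptor and interferon signals are known to alter sterol synthesis and the production of oxysterols.

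The arrays and sorts were checked first. Ccl17 averaged 12.51 ± 0.33 in LN cells and 6.24 ± 0.50 in spleen cells (log2 intensity, SD, n = 4 each), a log2 fold of 6.27 ± 0.28 (SE), which was higher in 4 of 4 pairs, and p was 0.0286 in an exact two-sided permutation test, which can go no lower with 70 arrangements. Mean intensity ran from 334 to 521 on LN arrays and from 239 to 510 on spleen arrays. Spleen array 4 stood apart, with a mean correlation of 0.887 to the other spleen arrays, where the group's highest was 0.951. Of 10 defining dendritic cell genes 8 were measured and limma called 0 in either direction, nor had any an unadjusted p under 0.05. Itgax (CD11c) was detected on 3 LN arrays and 3 spleen arrays, and Itgam (CD11b) did not pass the filter. Markers of some other cells differed: all 5 measured erythroid markers were lower in LN cells, with a summed intensity of 196 to 454 on LN arrays and 5086 to 39813 on spleen arrays. Of 8 measured plasmacytoid markers 5 were lower, and their sum was 5846 to 7349 on LN arrays and 16117 to 35834 on spleen arrays. Of 5 measured NK markers 3 were lower, with a sum of 2349 to 4276 on LN arrays and 3187 to 5093 on spleen arrays. The only measured T cell marker, Thy1, was higher in LN cells (summed intensity 173 to 395 on LN arrays and 34.4 to 63.3 on spleen arrays), and it was detected on 4 LN arrays and 1 spleen array. Below the filter, Cd3d was detected on 3 LN arrays and 0 spleen arrays, Cd3e on 2 LN arrays and 1 spleen array and Cd2 on 0 LN arrays and 1 spleen array, and Cd3g, Cd5 and Trat1 on no array. Of 3 measured B cell markers Cd22 was called lower, all 3 folds were negative, and the sum was 240 to 478 on LN arrays and 524 to 817 on spleen arrays. Of 10 neutrophil markers 0 passed the filter. S100a8, S100a9 and a Csf3r probe were detected on 0 LN arrays and 3 spleen arrays, and Ngp, Camp, Mmp8 and Cxcr2 on no array. Of 9 stromal markers only Pecam1 was measured, at a log2 fold of -0.14, and it was not called. Below the filter, Ccl21a and a Dcn probe were detected on 3 LN arrays and 0 spleen arrays, and 6 stromal markers on no array. The part of these cells in the results was not tested. In sorted bulk samples, fewer cells of a type and less RNA per cell cannot be told apart.

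Cholesterol genes, a list fixed with earlier results of these data known, were mostly higher in LN cells. Of the 21 measured genes 11 were called higher (52.4%) at a Benjamini-Hochberg adjusted p under 0.05 in limma's test, against 7.99% of all 8252 genes. Limma called 0 of the 21 lower, and 0 had a negative fold at an unadjusted p under 0.05, where 7.59% of all genes were called lower. Folds were positive in 20 of the 21 genes, against 52.4% of all genes, and Scap was the exception. In 12 of the 21 all LN values lay above all spleen values, against 12.2% of all genes. The median log2 fold was 1.0, against 0.03 over all genes. With arrays scaled to the same median in place of quantiles, 66.5% of all calls were higher, against 51.3% under quantiles, and 11 members were called higher under both. Mvk passed the detection filter through its LN arrays alone, so the filter itself favoured a higher LN value. Among the 17 members detected on all 8 arrays, 8 were called higher, against 6.73% of the 6788 genes detected on all arrays, and their median log2 fold was again 1.0.

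**Figure D1:**
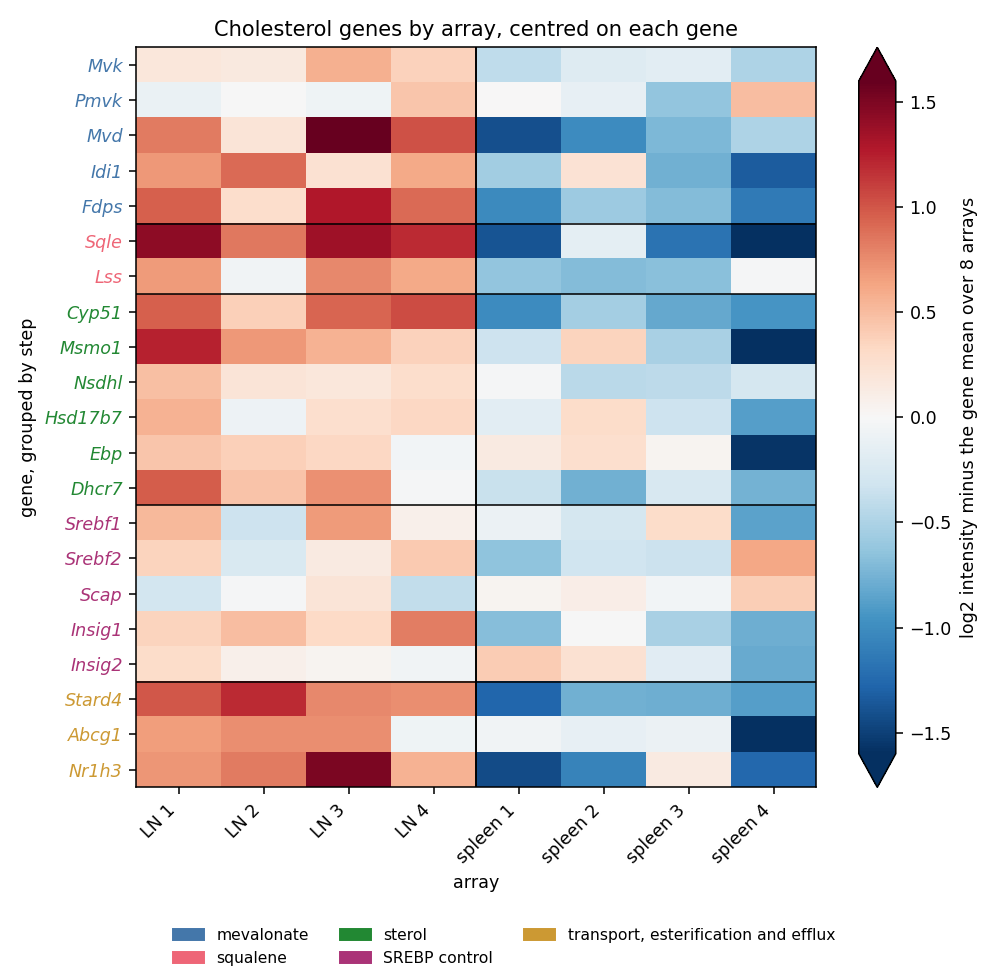
Each row is 1 of the 21 measured cholesterol genes and each column 1 array, with the 4 LN arrays left of the 4 spleen arrays. Colour gives the log2 intensity minus the gene's mean over the 8 arrays. Arrows on the colour bar stand for values beyond its ends. Mvd, Fdps, Sqle, Cyp51 and Stard4 are above their mean on every LN array and below it on every spleen array, and Pmvk, Scap and Insig2 show no such split.

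The mevalonate arm, which builds the isoprenoid units, had 5 measured genes of 8, of which 4 were called higher in LN cells. Mvk, among the 4, passed the detection filter through its LN arrays alone. Of the 3 genes of the arm detected on all 8 arrays 2 were called. Mvd, the decarboxylase that makes isopentenyl diphosphate, had log2 intensities of 8.83, 8.20, 9.59 and 9.02 on LN arrays 1 to 4, against 6.60, 6.99, 7.28 and 7.50 on spleen arrays 1 to 4. The lowest LN array lay above the highest spleen array. This gave a log2 fold of 1.82 ± 0.31 (SE, n = 4 arrays per group, adjusted p = 0.00288). Fdps, the synthase of farnesyl diphosphate at the branch towards sterols and prenyl groups, had 10.69, 10.01, 11.01 and 10.64 in LN cells, against 8.71, 9.16, 9.03 and 8.60 in spleen cells. Its groups did not overlap, and LN array 2 was the lowest of the LN arrays. The log2 fold was 1.71 ± 0.24 (adjusted p = 0.000869), and a second, dimmer probe gave 1.57. Idi1, the isomerase of isopentenyl diphosphate, had 6.93, 7.15, 6.48 and 6.84 in LN cells, against 5.68, 6.47, 5.47 and 4.91 in spleen cells. The closest arrays, LN 3 and spleen 2, almost met, and the gene was detected on only 2 spleen arrays, so the size of the fold, 1.22 ± 0.32 (adjusted p = 0.0272), is uncertain.

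Mvk, mevalonate kinase, had 5.72, 5.70, 6.10 and 5.90 in LN cells, against 5.14, 5.33, 5.38 and 5.04 in spleen cells. It was detected on 4 LN arrays and on no spleen array, so its spleen level was not well above background. The level in LN cells was at least 1.24-fold higher, counted against the lowest detected signal on each spleen array. The adjusted p of 0.0499 belongs to limma's test of the values above and not to this bound. Mvk passed the filter through its LN arrays alone, so its call adds no evidence of its own. The call lay at the threshold: leaving out any 1 of the 8 arrays moved the adjusted p to between 0.0642 and 0.138. It was also lost without the detection filter (adjusted p = 0.158), without background correction (adjusted p = 0.0662) and in the authors' values (adjusted p = 0.0656). Of the 27 alternatives that gave Mvk a value, 8 kept the call and 19 lost it. The call of Idi1 was lost without LN array 1, 2 or 4 or spleen array 1 or 3, with adjusted p between 0.0542 and 0.0776. Pmvk, phosphomevalonate kinase, was the only measured gene of the arm that was not called. Its log2 intensities were 10.37, 10.47, 10.42 and 10.92 in LN cells and 10.48, 10.35, 9.84 and 10.98 in spleen cells. Array 4 was the highest of its group in both organs, and the log2 fold was 0.13 ± 0.25 (95% interval -0.42 to 0.68, adjusted p = 0.807).

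Squalene metabolism followed the same direction. Sqle, squalene epoxidase, which commits squalene to the sterol branch, had the largest log2 fold of the 21 genes. Its log2 intensities were 10.48, 9.90, 10.41 and 10.25 in LN cells, against 7.68, 8.90, 7.88 and 6.96 in spleen cells. LN cells varied little, whereas spleen arrays 2 and 4 lay 1.94 apart. Its log2 fold was 2.41 ± 0.36 (adjusted p = 0.00121), or 5.31-fold, and a second passing probe gave 2.09. Lss, the cyclase that makes lanosterol, had 8.13, 7.39, 8.21 and 8.05 in LN cells, against 6.81, 6.75, 6.78 and 7.43 in spleen cells. Spleen array 4 exceeded LN array 2, so the groups overlapped. Its log2 fold was 1.0 ± 0.26 (adjusted p = 0.0246), and the call was lost without LN array 1, 3 or 4 or spleen array 1, 2 or 3, with adjusted p between 0.0629 and 0.0808.

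In the sterol arm, where lanosterol is demethylated, isomerised and reduced, 6 of 8 genes were measured. Of these 2 were called higher and the remaining 4 also had positive folds. Of the 5 detected on all 8 arrays 1 was called. Cyp51, the lanosterol demethylase, had 10.87, 10.30, 10.85 and 10.96 in LN cells, against 8.91, 9.37, 9.10 and 8.98 in spleen cells. Both groups were tight and 0.94 apart at their closest arrays. LN cells were higher by a log2 fold of 1.66 ± 0.20 (adjusted p = 0.000372). Dhcr7, a reductase at the end of the route to cholesterol, had 6.84, 6.31, 6.59 and 5.85 in LN cells, against 5.50, 5.10, 5.61 and 5.11 in spleen cells. It was detected on 4 LN arrays and 2 spleen arrays, so the size of its log2 fold of 1.07 ± 0.26 (adjusted p = 0.0174) is uncertain. The call of Dhcr7 was lost without LN array 1 or 3 or spleen array 2, with adjusted p between 0.0507 and 0.0594.

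Msmo1, the methylsterol oxidase that acts after Cyp51, had 10.16, 9.62, 9.49 and 9.30 in LN cells, against 8.59, 9.28, 8.41 and 6.58 in spleen cells. All LN arrays lay above all spleen arrays, but spleen array 4 was far below the others and the spread was wide. The log2 fold of 1.43 ± 0.49 was not called (adjusted p = 0.0794). It was called without spleen array 4, at 0.88 (adjusted p = 0.0255), without spleen array 2, at 1.78 (adjusted p = 0.0324), and with replicate number as a block, at 1.43 (adjusted p = 0.0177). Nsdhl, a sterol dehydrogenase, had 6.65, 6.36, 6.35 and 6.45 in LN cells, against 6.14, 5.73, 5.74 and 5.88 in spleen cells. Its groups did not overlap either, and its 4 probes gave log2 folds of 0.35 to 0.58, the brightest at 0.58 ± 0.19 (adjusted p = 0.072). On the first BeadChip this probe gave 0.57, on the second 0.59, while the brightest probe within each BeadChip was another one and gave 0.10 and 0.11. Nsdhl was called with the BeadChip as a block (adjusted p = 0.0481) and with array weights (adjusted p = 0.0407). It was also called among genes detected on all arrays (adjusted p = 0.0494). Without spleen array 1 a probe other than that of the main fit became the brightest, and that probe gave 0.31 (adjusted p = 0.499). On the probe of the main fit, spleen array 1 was the highest spleen array, at 6.14. Hsd17b7, a ketosteroid reductase, and Ebp, a sterol isomerase, had log2 folds of 0.54 ± 0.26 (adjusted p = 0.219) and 0.56 ± 0.38 (adjusted p = 0.397). Both overlapped, and without spleen array 4, the lowest array for both, the folds were 0.34 and 0.13.

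**Figure D2:**
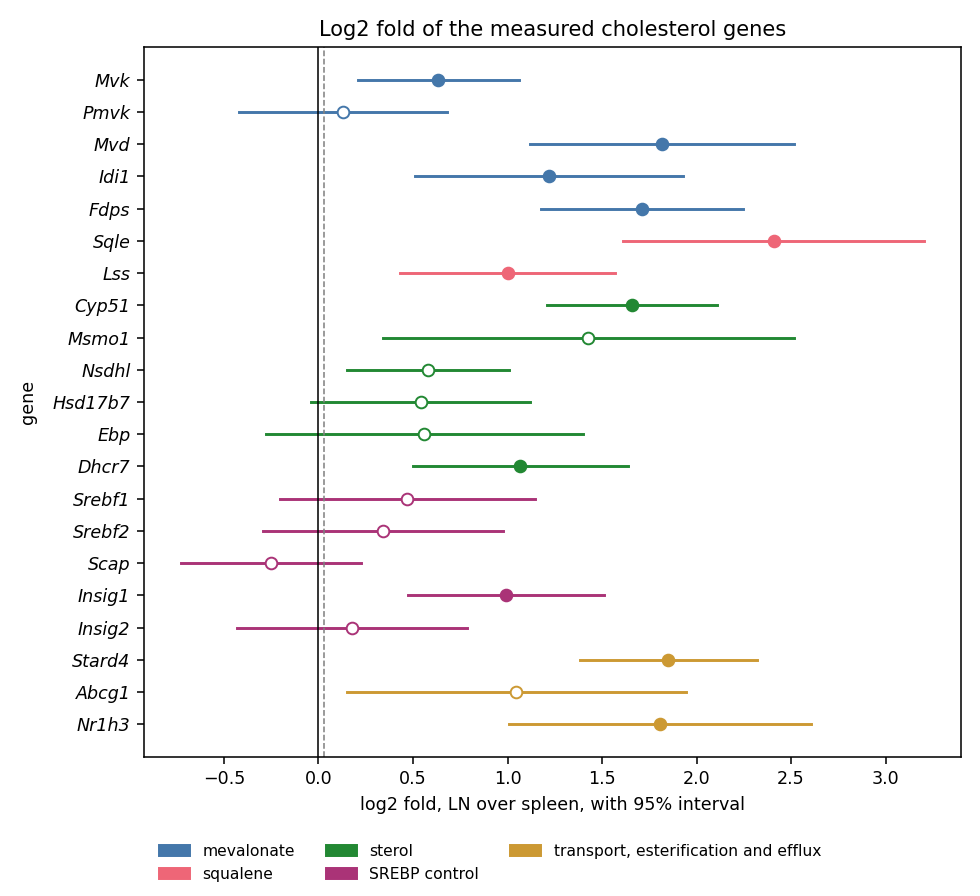
Points give the log2 fold of LN over spleen of each measured cholesterol gene and bars its 95% interval from the limma fit, ordered and coloured by step of the pathway. Filled points are called genes and the dashed line is the median of all genes (0.03). Sqle lies farthest to the right at 2.41, Scap is the one gene left of 0 at -0.25, and every synthesis enzyme is right of 0.

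The starting regions of the members, enzymes and others, were searched for promoter elements that are known to work with SREBP, and some are shown. SREBP acts with the general factors NF-Y, which binds the CCAAT box, and Sp1, which binds the GC box. RefSeq windows (GRCm38.p6) were given for 26 of the 31 genes and for 17 of the 21 measured ones. Fdps, Sqle, Stard4 and Abcg1 were measured but had no window. The counts below therefore leave out Sqle, which had the largest fold, and the called genes Fdps and Stard4. The CCAAT box (letters CCAAT, both strands) was present in the 250 bases before a start of 15 of the 17 (88.2%), against 40.9% of the 6777 tested genes with a window and 37.5% of all 27025 genes with one. Within 100 bases of the start it was present in 12 of the 17 (70.6%), against 26.5% of tested genes. The 17 members had 26 windows and the 6777 tested genes 8665, so members had more starts to search. Counted per window, the box was present in 61.5% of the members' windows against 35.3% of those of tested genes, and within 100 bases in 46.2% against 22.2%. It was present in 7 of the 8 members that were called higher and in 8 of the 9 that were not. Windows of 5 called enzymes are printed 5′ to 3′ on the gene's strand, ending at the base before the annotated start, with CCAAT boxes of either strand in capitals. Mvk lies at chr5:114444089-114444268 on the plus strand, Mvd at chr8:122443423-122443522 on the minus strand, Idi1 at chr13:8885506-8885605 on the plus strand, Lss at chr10:76531505-76531604 on the plus strand and Cyp51 at chr5:4104698-4104797 on the minus strand.
Mvk: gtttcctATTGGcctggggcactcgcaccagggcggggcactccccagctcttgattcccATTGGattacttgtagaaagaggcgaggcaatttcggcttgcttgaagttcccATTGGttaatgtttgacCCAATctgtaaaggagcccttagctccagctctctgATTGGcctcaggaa
Mvd: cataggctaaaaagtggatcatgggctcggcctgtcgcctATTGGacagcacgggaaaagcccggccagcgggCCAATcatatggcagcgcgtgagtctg
Idi1: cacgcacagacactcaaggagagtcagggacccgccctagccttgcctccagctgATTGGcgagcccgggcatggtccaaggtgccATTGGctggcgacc
Lss: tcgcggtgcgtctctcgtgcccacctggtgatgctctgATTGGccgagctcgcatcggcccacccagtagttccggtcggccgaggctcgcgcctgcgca
Cyp51: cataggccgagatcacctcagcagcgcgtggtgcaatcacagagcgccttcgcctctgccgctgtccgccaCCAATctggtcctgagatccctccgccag

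In Mvk 4 of its 5 CCAAT boxes lay on the minus strand at an even spacing of 53 bases. The GC box (letters GGGCGG, both strands) was present in 15 of the 17 measured members with a window, against 64.8% of tested genes, and per window in 69.2% against 58.1%. The E-box (letters CANNTG), of which SREBP proteins can also bind some forms, was present in 12 of the 17, against 60.7% of tested genes. Per window it was present in 73.1% against 56.7%. The narrower form CACGTG was present in 4 of the 17 (23.5%), against 10.3% of tested genes, and per window in 15.4% against 8.63%. The sterol regulatory element was searched on both strands as TCACNCCAC, and these letters were in the window of none of the 17 and of 1.09% of tested genes. The shorter TCACNCCA was in the windows of Msmo1 and Srebf2, 2 of the 17, and of 3.73% of tested genes. Every match to the longer form also matches the shorter one. These matches describe letters in the windows and no binding was measured.

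Of the 5 SREBP control genes 1 was called and the median log2 fold was 0.34, while the 13 measured synthesis enzymes had 8 calls and a median of 1.07. Of those detected on all 8 arrays, 1 of 4 control genes and 5 of 10 enzymes were called, with medians of 0.26 and 1.21. Of all genes 7.99% were called higher, and of those detected on all 8 arrays 6.73%. The difference between the control genes and the enzymes was not tested. Insig1, which retains SCAP in the endoplasmic reticulum and is itself a known SREBP target, was the gene called. Its log2 intensities were 7.76, 7.90, 7.72 and 8.23 in LN cells, against 6.72, 7.39, 6.89 and 6.63 in spleen cells. The groups did not overlap. The log2 fold was 0.99 ± 0.23 (adjusted p = 0.0159), and 2 further probes gave 0.81 and 0.56. The call was lost without LN array 4, at 0.88 (adjusted p = 0.0598).

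Insig2, the related retention protein, had 8.14, 7.93, 7.90 and 7.79 in LN cells and 8.26, 8.10, 7.67 and 7.04 in spleen cells. The arrays of both organs intermingled, with a log2 fold of 0.18 ± 0.27 (adjusted p = 0.766). Srebf2, which encodes the SREBP that mainly drives cholesterol synthesis, had 9.58, 8.99, 9.38 and 9.66 in LN cells and 8.59, 8.92, 8.89 and 9.86 in spleen cells. Spleen array 4 held the highest value of all 8, and the log2 fold of 0.34 ± 0.29 was not called (adjusted p = 0.516). Without that array it was 0.61 and called (adjusted p = 0.0409), with array weights it was 0.68 and called (adjusted p = 0.0114), and without spleen array 1 it was 0.18 (adjusted p = 0.752). Srebf1, whose product mainly drives fatty acid synthesis, was near background, detected on 3 LN arrays and 1 spleen array, with a log2 fold of 0.47 ± 0.30 (adjusted p = 0.373). Scap, the escort protein, had 7.06, 7.34, 7.57 and 6.97 in LN cells and 7.40, 7.46, 7.32 and 7.76 in spleen cells. Its log2 fold was -0.25 ± 0.21 (adjusted p = 0.528), and a second probe gave -0.31.

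**Figure D3:**
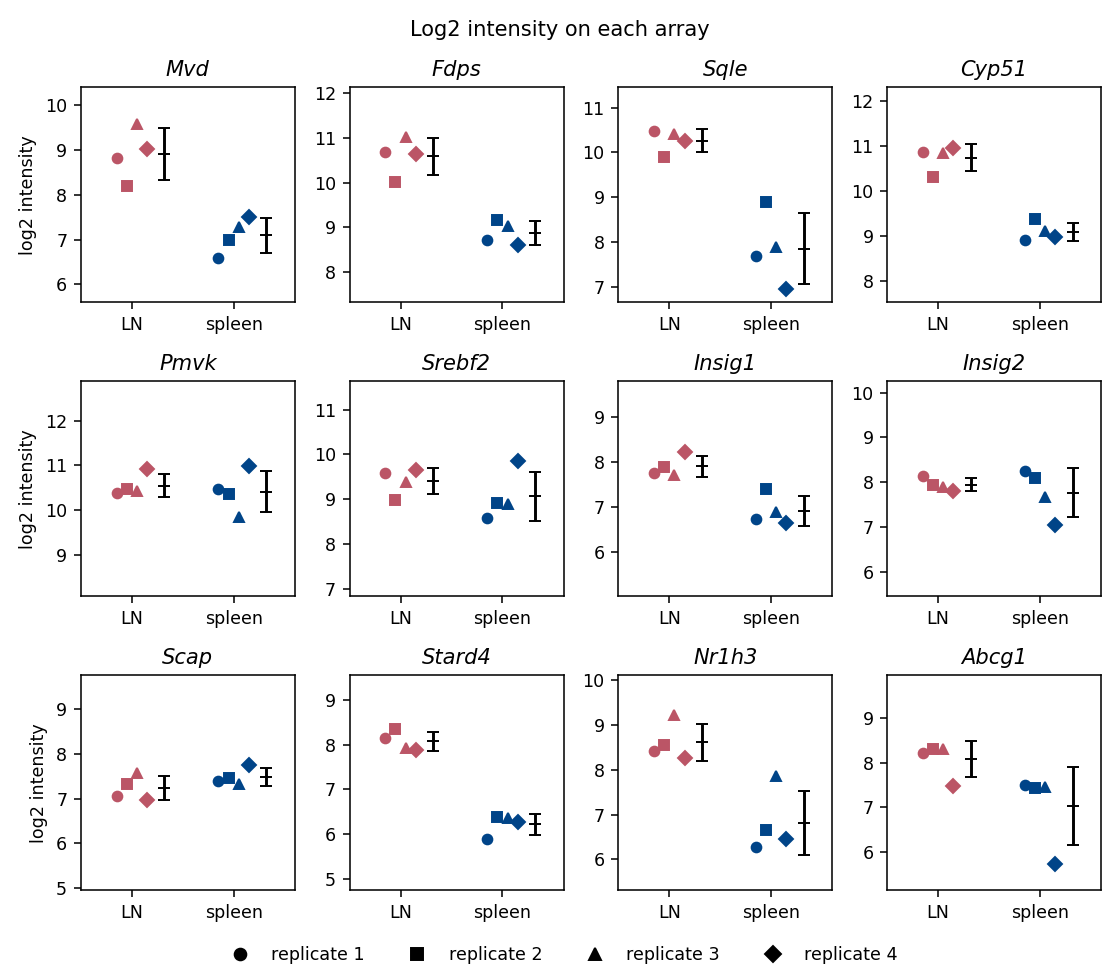
Each of the 12 panels gives 1 cholesterol gene, with the log2 intensity of each LN array on the left and each spleen array on the right. Marker shape gives the replicate number, and black bars the group mean ± SD (n = 4). Sqle, Fdps, Cyp51 and Stard4 show separate groups, and spleen array 4 lies far from the rest of its group for Srebf2 and Abcg1.

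Among genes of sterol transport and efflux 2 of the 3 measured were called higher in LN cells, Stard4 and Nr1h3. The only measured exporter, Abcg1, was not called. Stard4, a soluble carrier that moves sterol between membranes, had 8.15, 8.34, 7.92 and 7.89 in LN cells, against 5.88, 6.38, 6.36 and 6.27 in spleen cells. The groups lay 1.51 apart at their closest arrays, the widest gap among the members. That was a log2 fold of 1.85 ± 0.21 (adjusted p = 0.000252). Nr1h3, which encodes LXRα, had 8.42, 8.55, 9.22 and 8.28 in LN cells, against 6.28, 6.65, 7.86 and 6.46 in spleen cells. Array 3 was the highest of both groups, and the groups did not overlap. The log2 fold was 1.81 ± 0.36 (adjusted p = 0.00657). Abcg1, the exporter that passes sterol to lipoprotein particles and a known LXR target, had 8.22, 8.30, 8.30 and 7.48 in LN cells, against 7.50, 7.42, 7.46 and 5.73 in spleen cells. Array 4 was the lowest in both groups by a wide margin, and only LN array 4 and spleen array 1 overlapped. The log2 fold of 1.05 ± 0.40 was not called (adjusted p = 0.119), and it was called with replicate number as a block (adjusted p = 0.0127). Without spleen array 4 it was 0.61 (adjusted p = 0.0721).

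Macrophages are known to express Nr1h3 and Abcg1, so their markers were set beside these values. Of 13 macrophage markers 8 were measured, limma called 0 higher, with 2 at an unadjusted p under 0.05, and Spic was called lower in LN cells. The summed intensity was 2024 to 2397 on LN arrays and 4190 to 5417 on spleen arrays, and without Spic it was 1542 to 1756 on LN arrays and 1134 to 1564 on spleen arrays. Of the 8 folds 5 were positive, with a list median of 0.53: C1qc had 1.04 (adjusted p = 0.0628), Vcam1 0.83 (adjusted p = 0.114), C1qb 0.68, Timd4 0.60 and Csf1r 0.46. C1qa and Marco, below the filter, were each detected on 3 LN arrays and 0 spleen arrays, and Siglec1 on no array. Of 7 monocyte markers 3 were measured. Lyz2 was called higher at 3.25, S100a4 was called lower at -1.11, and Ly6c1 had -1.23 (adjusted p = 0.0678). Their summed intensity was 1164 to 1895 on LN arrays and 628 to 1253 on spleen arrays, and without Lyz2 it was 216 to 402 on LN arrays and 503 to 847 on spleen arrays. Ccr2 and Fn1 were detected on no array. Their part in the result was not tested.

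The remaining 10 genes gave no value. Acat2, Hmgcs1, Fdft1, Soat1 and Nr1h2 had no probe under their symbol in the gene table and were not analysed here. Ggps1, the geranylgeranyl diphosphate synthase, Sc5d, a sterol desaturase, and Abca1, the exporter to lipid-poor apolipoprotein, were listed but detected on no array. Mylip, the LXR-driven ligase that degrades lipoprotein receptors, was detected on 1 spleen array. Tm7sf2, a sterol reductase, lay just under the filter with detection on 2 LN arrays and 1 spleen array, at 5.54, 5.24, 5.60 and 5.15 in LN cells and 4.63, 4.88, 4.85 and 5.71 in spleen cells. Just inside the filter were Mvk and Srebf1, each detected on 4 arrays. No fold was fitted for the 5 listed genes below the filter, so a difference in them was not tested.

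The size of the difference varied between the 4 pairs of arrays that shared a replicate number. Over the 13 measured synthesis enzymes the median pair difference, LN minus spleen on the log2 scale, was 1.31 in pair 1, 0.64 in pair 2, 1.01 in pair 3 and 1.52 in pair 4. Over all genes it stayed between -0.02 and 0.12. Pair 2 had the smallest difference for 9 of the 13 enzymes. LN array 2 was the lowest LN array for 7 enzymes, and spleen array 2 was the highest spleen array for 7. Spleen array 4, which stood apart over all genes, was the lowest spleen array for 7. Of the 21 members 15 were higher in LN cells in all 4 pairs.

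**Figure D4:**
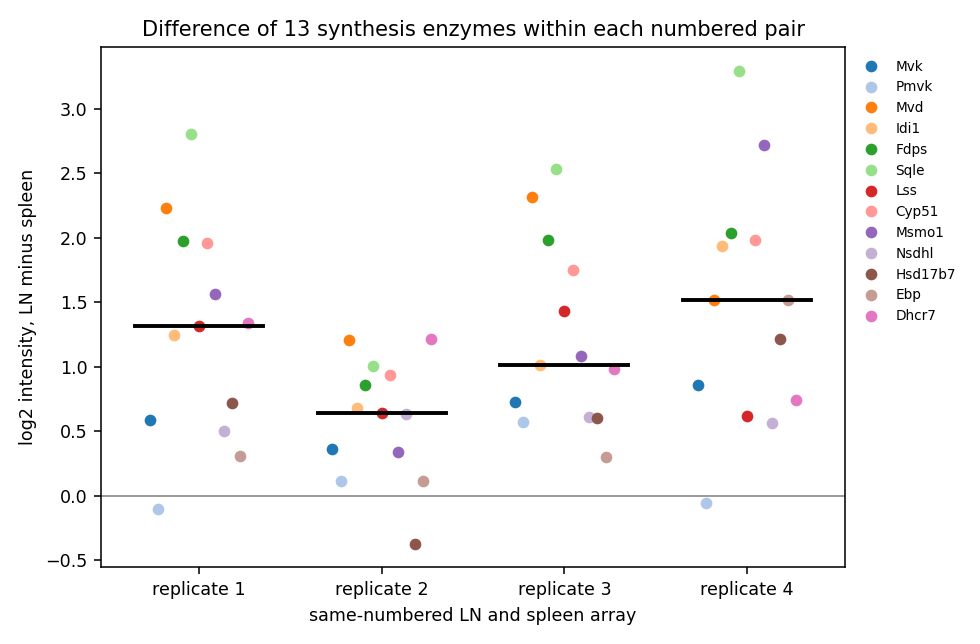
Points give the LN minus spleen difference (log2 intensity) of each of the 13 measured synthesis enzymes in each of the 4 pairs, and black lines the median. The median is lowest in pair 2, at 0.64, and in pair 4 the points run from -0.06 to 3.29.

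Replicates 1 and 2 of each organ shared one BeadChip, called the first here, and replicates 3 and 4 the other. The median log2 fold of the members was 0.80 within the first and 1.02 within the second. With 2 arrays per group, 11 members were called higher on the first BeadChip alone, Msmo1 (adjusted p = 0.0291) and Abcg1 (adjusted p = 0.0164) among them but not Mvk or Insig1. On the second alone 4 were called, Mvd, Fdps, Sqle and Cyp51, and these were also called on the first. Leaving out 1 array at a time gave 7 to 12 members called higher and 0 lower. The count was 7 without LN array 1 and 7 without LN array 4. Mvd, Fdps, Sqle, Cyp51, Stard4 and Nr1h3 were called in all 8 of these fits, 6 of the 11 called genes. Probes were also set against each other: 7 members had more than 1 passing probe, 17 probes in all, and within each of the 7 genes all passing probes had the same sign. Of the 31 passing probes 29 had a positive log2 fold, and both probes of Scap were negative.

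Neighbouring lipid pathways, 72 further genes of which 47 were measured, had 4 genes called higher (8.51%) and 2 called lower (4.26%) in LN cells, against 7.99% and 7.59% of all genes. The higher share was near that of all genes. Their median log2 fold was 0.21. In fatty acid synthesis, the other branch under SREBP control, 0 of 9 measured genes were called by limma. All 9 had positive folds, with a median of 0.28, and 1 of them, Scd1, had an unadjusted p under 0.05. Scd1, the stearoyl-CoA desaturase, had the largest fold, 1.03 ± 0.36 (adjusted p = 0.084), which was called with replicate number as a block (adjusted p = 0.0378). Genes that use isoprenoids to modify proteins had 0 calls among 10 measured, none at an unadjusted p under 0.05, and a median of -0.07. Icmt, the methyltransferase of prenylated proteins, had the largest positive fold at 0.37 ± 0.29, and Chm, an escort of Rab prenylation, the largest negative at -0.45 ± 0.25.

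Of the machinery that cleaves SREBP or degrades sterol enzymes 1 of 5 measured genes was called. Vcp, the ATPase that extracts proteins from the endoplasmic reticulum for degradation, was higher by 0.80 ± 0.13 (adjusted p = 0.002), and with arrays scaled to the same median in place of quantiles it was 1.0 and not called (adjusted p = 0.0625). Erlin1 of the same list had -0.51 ± 0.36 (adjusted p = 0.429), and without spleen array 4 it was -0.87 and called (adjusted p = 0.0196). Among sterol trafficking genes 1 of 12 was called. Stard3, which tethers endosomes to the endoplasmic reticulum and carries sterol between them, had 8.68, 8.40, 8.83 and 8.45 in LN cells, against 9.41, 9.26, 9.44 and 10.04 in spleen cells. All LN arrays lay below all spleen arrays. Its log2 fold was -0.95 ± 0.22 (adjusted p = 0.0142). The call was lost without LN array 4 (adjusted p = 0.0515) and under median scaling, at -0.70 (adjusted p = 0.116). Lipa, the lysosomal acid lipase that frees cholesterol from its esters, had 0.89 ± 0.37 and was not called (adjusted p = 0.155). It was called without spleen array 4, at 1.18 (adjusted p = 0.0162), and with replicate number as a block, at 0.89 (adjusted p = 0.0235).

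Of LXR partners and targets 1 of 5 measured genes was called. Apoe, the apolipoprotein that accepts exported sterol, had 6.87, 7.27, 7.73 and 7.32 in LN cells, against 5.14, 5.81, 5.94 and 6.19 in spleen cells. The groups did not overlap, and the log2 fold was 1.52 ± 0.28 (adjusted p = 0.00399). Abca7, a lipid transporter, had -0.38. Oxysterol and ester handling held the largest fold of the neighbouring lists. Cyp7b1, a hydroxylase that turns oxysterols into ligands of the guidance receptor GPR183, had 10.74, 10.91, 11.09 and 10.73 in LN cells, against 7.87, 7.97, 8.81 and 7.02 in spleen cells. LN arrays were nearly level and the closest spleen array lay 1.92 below them. The log2 fold was 2.95 ± 0.33 (adjusted p = 0.000209).

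Hsd3b7, the dehydrogenase that converts such ligands onward to inactive sterols, had 12.08, 12.12, 12.42 and 12.04 in LN cells, against 11.40, 10.79, 11.15 and 11.30 in spleen cells. Its groups were also separate, with a log2 fold of 1.0 ± 0.18 (adjusted p = 0.0033). Both genes of the same route, the one that makes and the one that removes the ligand, were called higher in LN cells. Ch25h, which makes the precursor, and Gpr183 itself were looked at after their values were seen. They had log2 folds of 0.49 ± 0.34 (adjusted p = 0.41) and 0.06 ± 0.19 (adjusted p = 0.883). Nceh1, which hydrolyses cholesterol esters, was lower by -0.93 ± 0.28 (adjusted p = 0.0461). That call was lost without LN array 1, 3 or 4 or spleen array 1, 2 or 3, with adjusted p between 0.0815 and 0.135, and under median scaling, at -0.70 (adjusted p = 0.301).

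**Figure D5:**
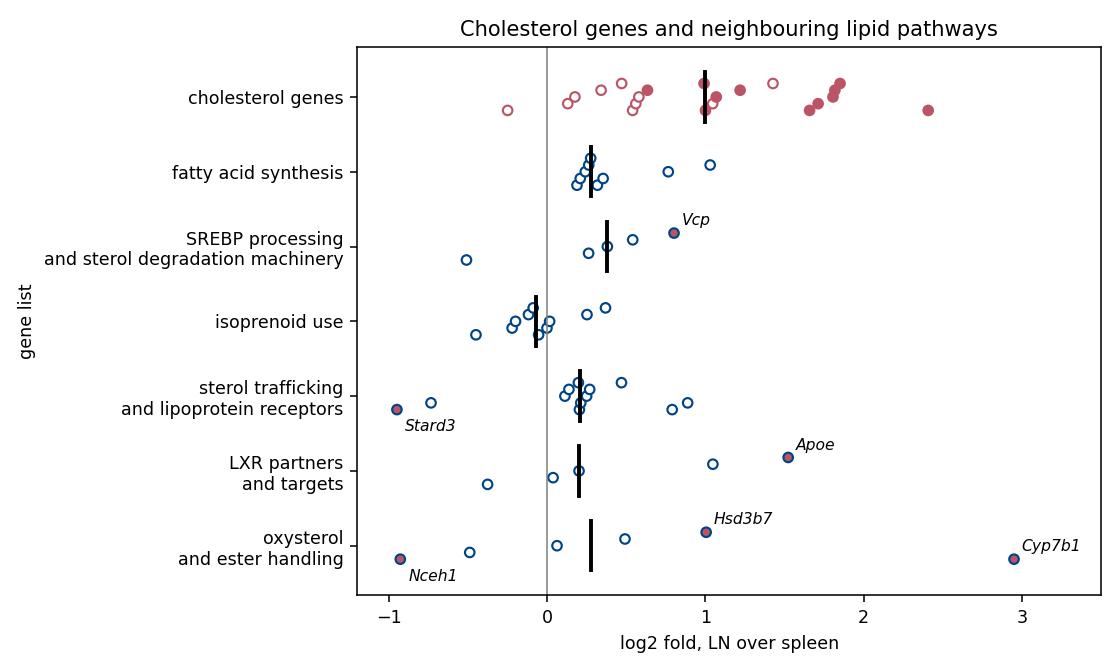
Each point is the log2 fold of LN over spleen of 1 measured gene, with the cholesterol genes in the top row and the neighbouring lipid pathways below. Filled points are called in either direction, black lines are list medians, and called genes outside the cholesterol list are named. Cyp7b1 lies farthest right at 2.95 and fatty acid synthesis lies right of 0 with no call.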

How the data were processed

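RNA was extracted with TRIzol and labelled as biotinylated cRNA for Illumina BeadChips, per the labels' protocols. The deposited table of non-normalized values gives, per the file headers, a linear bead intensity of every probe together with its detection p-value. The authors' deposited processed values are on a log2 scale, settled by comparing each array with its own intensities. Their median was 6.28 on every array, and they were used as an alternative. The submitters' processing notes name Partek, and the background step is not given in the sources used here.

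The neqc function of limma 3.58.1 (R 4.3.3, with jsonlite 2.0.0 for the labels) subtracted a background that it inferred from detection p, added an offset of 16, normalized by quantiles and took log2. Probes with a detection p under 0.01 on at least 4 of 8 arrays were kept (14726 of 45281), and the brightest passing probe stood for each gene. Symbols came from the platform's gene table, which gave 34885 probes 1 symbol, 18 several and 10378 none. Entrez identifiers of 34807 were found in the mouse gene table, with 0 changes of symbol. Group means were compared two-sided in a limma model without a pairing term (lmFit, then eBayes allowing for an intensity trend). The p-values were adjusted by Benjamini-Hochberg over all 8252 genes. A log2 fold is LN minus spleen. A gene seen on 4 arrays of an organ and 0 of the other is given as a lower bound. The number of arrays limits the precision. The fit was tested on simulated data with independent genes and the spreads of these arrays. It called 41% of 100 genes with a true log2 fold of 1 and 90% of 100 with 2, and 5.07% of its calls were false. Far fewer genes were changed there than were called in these data, 659 higher and 626 lower. The adjusted p depends on that number, so these shares do not carry over directly to the fit of these data. A gene with a true log2 fold of 1 or less can still go uncalled, at a rate that was not measured here. Python 3.11.15 with pandas 2.3.3 served for promoter windows, and matplotlib 3.10.9 for plots.

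Every measured member was named, and of each neighbouring list up to 3 called genes per direction or, with none called, the largest fold per direction. Members, lists and tests were chosen with earlier results of these data known. Same-numbered LN and spleen arrays deviated together from their group means (correlations 0.309, 0.571, 0.270 and 0.544 for replicates 1 to 4). The numbers were taken to pair the samples in the pair differences and the replicate block only. Same-numbered arrays also share a BeadChip. Differently numbered arrays of one BeadChip had correlations of 0.406 (LN 1, spleen 2), 0.583 (LN 2, spleen 1), 0.415 (LN 3, spleen 4) and -0.183 (LN 4, spleen 3). Of the 4 LN arrays, 1 correlated best with its own number, so number and BeadChip cannot be told apart. No arrays repeated one another, with a highest correlation of 0.989. Protein sequences were not used here. Alternatives covered background correction, scaling, detection filter, choice of probe, array weights, BeadChip, pairing and each array left out.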

Additional observations from a re-analysis of the deposited data

Results flagged for a closer look

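Of 42 groups of 4 arrays, 1 for each organ of each of the 21 measured cholesterol genes, 5 had an array far from the other 3 by Dixon's criterion. Chance alone gives about 5% of groups. All 5 were arrays numbered 4. In LN cells, array 4 was the highest for Pmvk, at 10.92 against 10.47 for the next array. For Abcg1 it was the lowest, at 7.48 against 8.223. In spleen cells, array 4 was the highest for Lss, at 7.431 against 6.812. It was the lowest for Ebp, at 6.965 against 8.566, and for Abcg1, at 5.728 against 7.425. Spleen array 4 also had the lowest mean intensity of the 8 arrays, 239, and the lowest mean correlation with its own group, 0.887. The part of that array's quality in these values was not tested.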

How the results depend on the processing

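Across 28 alternative settings, 584 values of the 21 members kept direction and side of the threshold in 512 cases, lost a call in 46, gained one in 20 and changed sign in 6. Both genes that changed sign were never called. Insig2 was -0.15 with array weights, -0.14 on the first BeadChip and -0.066 without spleen array 4 (range with 1 array left out -0.066 to 0.34), and -0.016 with the replicate block without replicate 4. Pmvk was -0.059 without spleen array 3 (range with 1 array left out -0.059 to 0.32) and -0.017 with the replicate block without replicate 3. With replicate number as a block, 13 members were called higher in place of 11, all 11 among them, and Msmo1 and Abcg1 were added. The members called higher numbered 4 on the second BeadChip, which holds 4 of the 8 arrays, and 7 to 12 when 1 array was left out, with 0 lower in each. The median log2 fold of the members, 1.0, was 0.61 without background correction, 0.68 in the authors' values, 0.61 without the detection filter, 0.80 on the first BeadChip and 1.20 under median scaling. Median scaling also moved the median of all genes to 0.24, against 0.03, so the members lay 0.97 above it under both scalings. It gave 315 genes lower, so that 66.5% of calls were higher, against 51.3% under quantiles.

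Over all genes, array weights gave 1369 higher and 1329 lower, the second BeadChip 178 and 181, and the block without replicate 4 1313 and 1307. Leaving out 1 array gave 454 to 1006 higher and 421 to 986 lower. The neighbouring pathways had 10 genes higher with array weights, 7 with the BeadChip block, 7 on the first BeadChip, 1 on the second, 7 with the replicate block and 12 with it without replicate 4, and 4 to 7 with 1 array left out. Tmem97 and, lower, Npc2 were called under the replicate block beside the genes named above. Genes lower numbered 0 under median scaling, 1 without the detection filter, 1 at a detection p under 0.05, 1 over all passing probes, 4 with array weights, 4 on the first BeadChip, 0 on the second, 1 with the block without replicate 1, 1 without 2 and 4 without 4, and 0 to 4 with 1 array left out. The cause of these shifts was not tested. Low signal limits Mvk, Idi1, Dhcr7 and Srebf1.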
